A study of Homo sapiens with 2 samples.

Results

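The genes described here are those of transforming growth factor beta (TGF-beta) signalling in U251 cells, an established human glioma cell line: the 3 ligands TGFB1, TGFB2 and TGFB3, the 3 receptors TGFBR1, TGFBR2 and TGFBR3, the signal carriers SMAD3 and SMAD7, and the output genes PMEPA1 and SKIL. Every probe set of the array whose annotated gene symbol is exactly one of these 10 names was taken, which gave 29 of the 54675 probe sets and 10 of 19775 genes with a probe set of a single symbol. The 10 names were chosen by pathway role, with the differences of these same arrays between miR-31 and control already known, so the ratios of the members below are a description and carry no test. One array held RNA of U251 cells transfected with has-miR-31, as the labels spell the microRNA, and one held RNA of U251 cells transfected with a control. The labels do not name the construct, the nature of the control or the time from transfection to harvest. Both cultures grew in DMEM with fetal bovine serum, and RNA of each was labelled with biotin and hybridised to an Affymetrix HG-U133_Plus_2 array, which reads transcripts with sets of short probes. With 1 array per group no spread between cultures exists, and no p-value was computed.

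TGF-beta ligands are secreted as latent dimers and, once released, bind the type II receptor TGFBR2, which recruits and phosphorylates the type I receptor TGFBR1. TGFBR1 then phosphorylates SMAD2 and SMAD3, which enter the nucleus with SMAD4 and bind DNA. Several genes switched on in this way, among them SMAD7, SKIL and PMEPA1, restrain the pathway in turn. In glioma, TGF-beta is known for its part in invasion and in the suppression of immune cells.

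The transfected microRNA is shown because it is the only difference that the labels name between the cultures. The labels give no arm, and the mature form in the RefSeq table (build GRCh38.p14) is the 5p arm, at chr9:21512158-21512178 on the minus strand. Its seed, bases 2 to 8, is in capitals. No probe set was taken to read mature miR-31, so its level was not checked here.
hsa-miR-31-5p: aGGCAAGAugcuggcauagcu

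TGFBR1 and PMEPA1 stood apart from the other 8 genes. Among probe sets that passed the level minimum, every one of both genes had at least 2-fold less signal in the miR-31 array. No other member reached 2-fold on such a probe set. Below the minimum, a dim TGFBR1 probe set was lower and a dim TGFB2 probe set was higher, each past 2-fold. To set these sizes against the rest of the array, each value was logged as log2(intensity + 16). A log2 ratio is then miR-31 minus control, a scale that understates the change of dim genes. A probe set was kept if its mean level over both arrays reached that of the middle probe set of the array, at an intensity of 62.7. The brightest kept probe set stood for a gene. Of the 29 member probe sets 21 were kept, 5 of them lower by 2-fold or more and 0 higher. Over all 22467 kept probe sets with 1 symbol, 1.67% were lower by that size and 3.58% were higher by it. By gene, 2 of the 10 members were at least 2-fold lower and 0 higher, against 1.58% lower and 3.74% higher among all 11787 genes compared. The median log2 ratio was -0.22 over the 10 members and 0.03 over all genes.

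**Figure D1:**
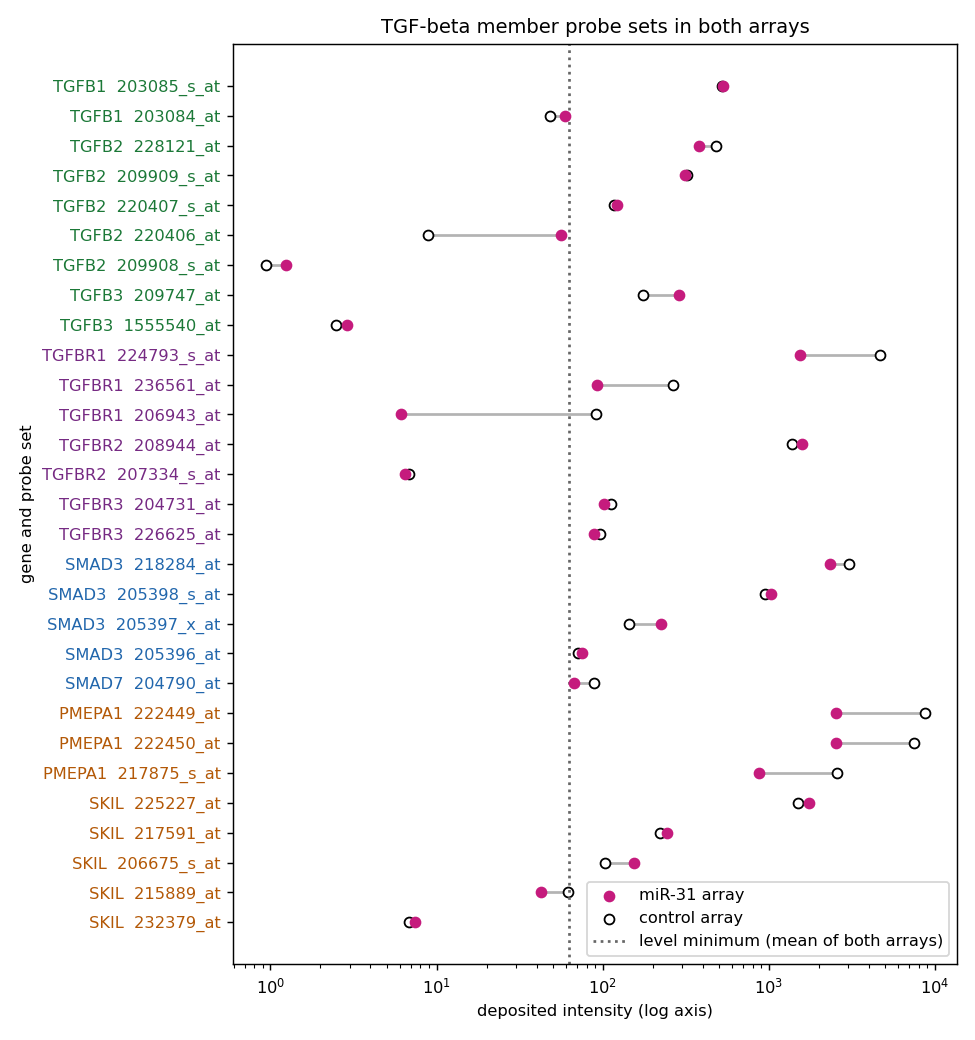
Deposited intensity (log axis) of each of the 29 member probe sets in the miR-31 array (filled) and the control array (open), with gene names coloured by role and the dotted line at the level minimum of 62.7. The pairs of TGFBR1 and PMEPA1 are widely separated with the miR-31 array on the left, and most other pairs nearly touch.

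The ligands differed little, apart from TGFB3. TGFB1, the most widely expressed ligand, had an intensity of 533 in the miR-31 array and 524 in the control array on its kept probe set 203085_s_at, a log2 ratio of 0.02. Its dim probe set 203084_at had 59.6 in the miR-31 array and 48.4 in the control array. Both arrays thus gave close to the same TGFB1 signal. TGFB2, a ligand first described in glioblastoma as an inhibitor of T cells, had 5 probe sets, of which 3 were kept. The brightest, 228121_at, had 379 in the miR-31 array and 479 in the control array, a log2 ratio of -0.33. The other kept ones, 209909_s_at and 220407_s_at, had log2 ratios of -0.04 and 0.04. The TGFB2 probe set 220406_at had 56.3 in the miR-31 array and 8.86 in the control array, a log2 ratio of 1.54, but it lay below the level minimum and no brighter TGFB2 probe set moved with it. TGFB3, the remaining ligand, had 289 in the miR-31 array and 175 in the control array on 209747_at. Its log2 ratio of 0.67 was the highest of any kept member probe set and stayed within 2-fold. Its second probe set, 1555540_at, was near the bottom of the scale in both arrays, with 2.89 in the miR-31 array and 2.49 in the control array.

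The receptors did not move as a group. TGFBR1, the type I receptor kinase, had 1538 in the miR-31 array and 4642 in the control array on its brightest probe set, 224793_s_at, a 3.02-fold lower intensity and a log2 ratio of -1.58. Its probe set 236561_at had 92.8 in the miR-31 array and 265 in the control array, a 2.86-fold lower intensity and a log2 ratio of -1.37. The third, 206943_at, had 6.14 in the miR-31 array and 91.8 in the control array, a log2 ratio of -2.28, and its mean level lay below the minimum. Both kept probe sets of TGFBR1 were therefore lower in the miR-31 array, and the third, being below the minimum, was not counted. On the brightest kept probe set TGFBR1 ranked 48 from the lowest of 11787 genes. TGFBR2, the type II receptor that binds the ligand first, had 1577 in the miR-31 array and 1377 in the control array on 208944_at, a log2 ratio of 0.19. Its other probe set, 207334_s_at, had 6.44 in the miR-31 array and 6.86 in the control array. TGFBR3, the coreceptor betaglycan that presents ligand to TGFBR2, had 102 in the miR-31 array and 112 in the control array on 204731_at, and 88.9 in the miR-31 array and 97.0 in the control array on 226625_at. Both TGFBR3 ratios were -0.11 on the log2 scale. Between the arrays, the transcript signal of TGFBR1 was thus lower with miR-31 and that of TGFBR2 lay within 2-fold. Amounts of the receptors relative to each other were not measured, because intensities of different probe sets are not comparable.

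**Figure D2:**
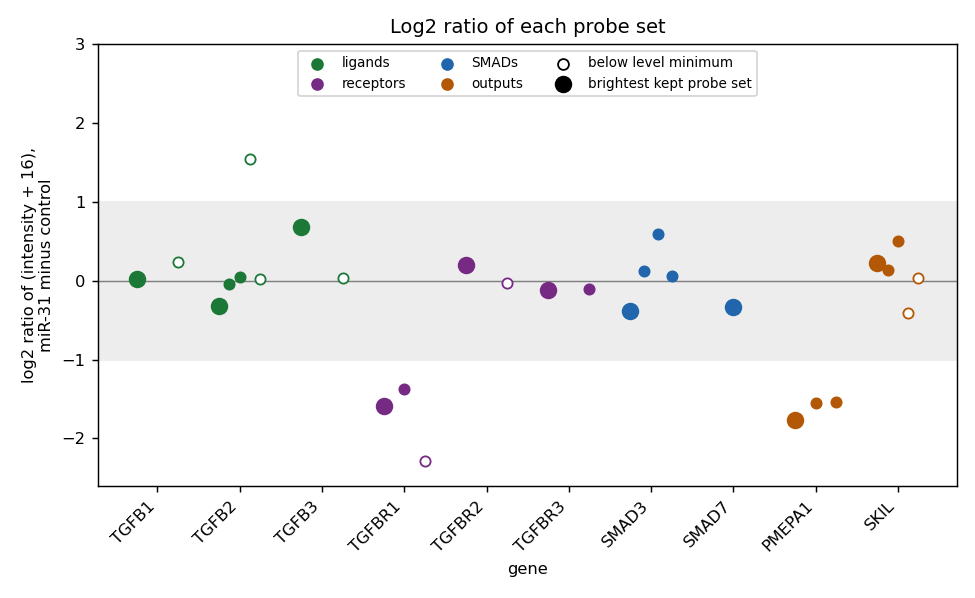
Log2 ratio of (intensity + 16), miR-31 over control, for each probe set of the 10 genes, with open points below the level minimum, large points for the brightest kept probe set and the band within 2-fold shaded. All 3 points of TGFBR1 and all 3 of PMEPA1 lie under the band, and the only point above it is a TGFB2 probe set below the level minimum.

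SMAD3, which carries the signal of the activated receptor to DNA, gave different answers on its 4 kept probe sets. The brightest, 218284_at, had 2322 in the miR-31 array and 3039 in the control array, a log2 ratio of -0.39. The probe set 205398_s_at had 1036 in the miR-31 array and 949.9 in the control array, a log2 ratio of 0.12. The probe sets 205397_x_at and 205396_at had log2 ratios of 0.59 and 0.06. The SMAD3 ratios thus had both signs, within 2-fold, and spanned 0.98 on the log2 scale. SMAD7, the inhibitory SMAD that directs the receptor to degradation, had 67.6 in the miR-31 array and 89.0 in the control array on its only probe set, 204790_at. Its log2 ratio was -0.33, from a level close to the minimum.

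The output genes went apart. PMEPA1, a membrane protein that binds SMAD2 and SMAD3 and keeps them from the receptor, was lower on all 3 of its probe sets. On 222449_at it had 2544 in the miR-31 array and 8660.1 in the control array, a 3.40-fold lower intensity and a log2 ratio of -1.76. On 222450_at it had 2548 in the miR-31 array and 7499 in the control array, a log2 ratio of -1.55, and on 217875_s_at it had 876 in the miR-31 array and 2586 in the control array, a log2 ratio of -1.54. The PMEPA1 probe sets differed from each other by at most 0.22 on the log2 scale, and the gene ranked 30 from the lowest of 11787 genes. SKIL, also called SnoN, a corepressor that binds SMAD proteins, was not lower on its kept probe sets. It had 1754 in the miR-31 array and 1495 in the control array on the brightest, 225227_at, a log2 ratio of 0.23. Its probe sets 217591_at and 206675_s_at had log2 ratios of 0.14 and 0.51. The 2 dim SKIL probe sets had 42.8 in the miR-31 array and 62.2 in the control array (215889_at), and 7.45 in the miR-31 array and 6.85 in the control array (232379_at). Of the 3 restraining genes among the members, SMAD7, SKIL and PMEPA1, only PMEPA1 was thus at least 2-fold lower.

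Agreement among probe sets of one gene showed how far readings of one transcript can differ within this array pair. Over 3142 genes with exactly 2 kept probe sets, the SD of one probe set's log2 ratio was 0.334, a value that measures how probe sets disagree and says nothing of how cultures vary. The kept log2 ratios of TGFBR1 lay between -1.58 and -1.37 and those of PMEPA1 between -1.76 and -1.54, and the ratios of the other 8 genes on their brightest kept probe set lay between -0.39 and 0.67. Among 5918 genes with 2 or more kept probe sets, 24 genes, or 0.406%, had every one at least 2-fold lower, and TGFBR1 and PMEPA1 were among them. Among 2776 genes with 3 or more, 11 genes, or 0.396%, did so, and PMEPA1 was one of these. Both members were named with these ratios known, so the shares place them on the array and test nothing. Past-2-fold ratios were less frequent at high signal: when kept probe sets were split by level into 4 equal groups, 1.1% of the brightest group were at least 2-fold lower, against 2.69% of the dimmest group. The brightest TGFBR1 probe set and all 3 of PMEPA1 lay in the brightest group, and the kept TGFBR1 probe set 236561_at lay in the dimmest.

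**Figure D3:**
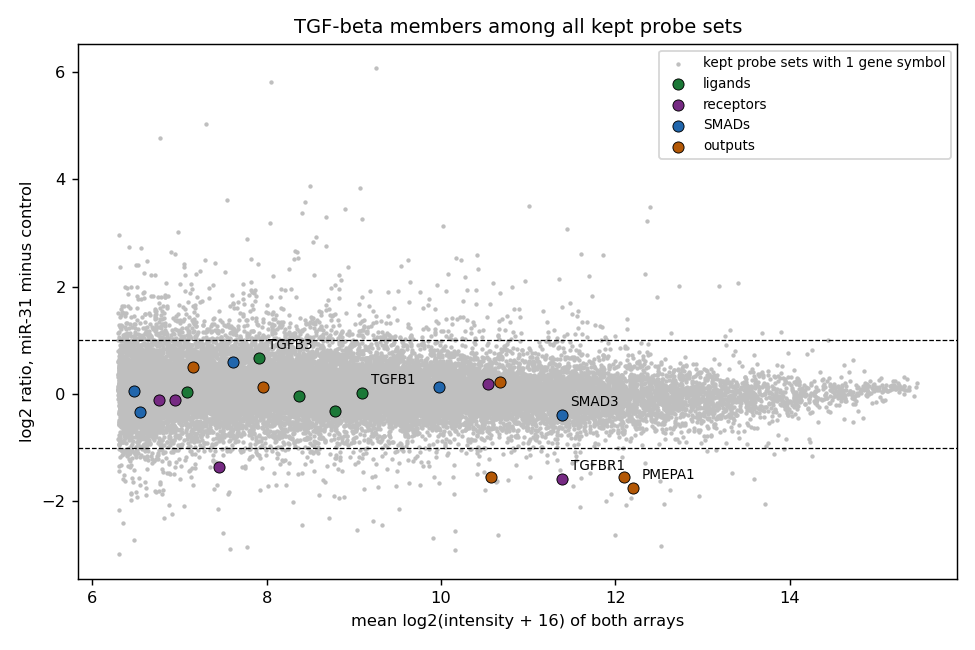
Log2 ratio, miR-31 over control, against mean log2(intensity + 16) of both arrays for the 22467 kept probe sets with 1 symbol (grey) and the 21 kept member probe sets (coloured by role), with dashed lines at 2-fold. All 3 PMEPA1 points and the brighter TGFBR1 point lie below the lower line at high signal, the other TGFBR1 point lies below it at low signal, and the remaining members lie between the lines.

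The scale of the ratios rests on the authors' scaling, which gave both arrays the same mean of 500.1 after 2 percent of probe sets was left out at each end. The bacterial hybridisation controls had a median log2 ratio of 0.19 over 18 probe sets and the poly-A spike-in controls 0.55 over 24 probe sets, so centring on either moves every gene down by that amount. TGFBR1 then had a log2 ratio of -1.77 with the hybridisation controls and -2.14 with the poly-A controls, and PMEPA1 had -1.95 and -2.31. TGFB1, TGFBR2 and SKIL, which lay above 0 on the deposited scale, had -0.53, -0.36 and -0.32 when centred on the poly-A controls, so their direction depended on the scale. TGFB3 stayed above 0, at 0.12. With the mean of kept probe sets, SMAD3 had 0.10 in place of -0.39. All ratios here keep the authors' scale, and no direction is drawn for the 8 genes within 2-fold.

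**Figure D4:**
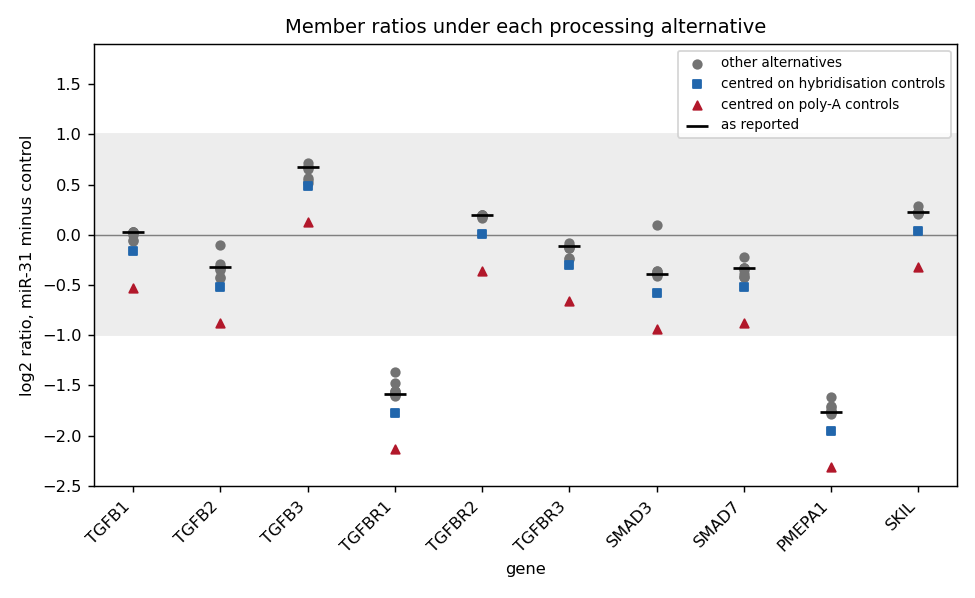
Log2 ratio of each member gene, miR-31 over control, as reported (bar) and under each alternative (points), with the band within 2-fold shaded. TGFBR1 and PMEPA1 stay below the band in every setting, and centring on the poly-A controls moves TGFB1, TGFBR2 and SKIL across 0. TGFB1 also crosses 0 with quantile normalization, loess and centring on the hybridisation controls. SMAD3 crosses 0 with the mean of kept probe sets.

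Other genes of the pathway, 58 in 5 lists, were looked up to place the members. Of these, 48 were compared: 3 were lower by 2-fold or more, 2 were higher and 43 lay within 2-fold. Their median log2 ratio was -0.08, and 0.04 with the mean of each gene's kept probe sets, so its sign depended on that choice. Another 3 genes were not analysed here, and 7 lay below the level minimum. The shares of lower and higher genes over the whole array, given above, were 1.58% and 3.74%.

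Genes of ligand storage and activation had a median log2 ratio of 0.07 over 7 genes. LTBP1, which anchors latent TGF-beta in the matrix, had 318 in the miR-31 array and 149 in the control array, a log2 ratio of 1.02 from a single kept probe set. It was the only gene of its list past 2-fold on the brightest kept probe set. LTBP3 had a log2 ratio of 0.71 on its brightest, with 3 kept probe sets between -0.12 and 1.11. THBS1, thrombospondin 1, an activator of latent TGF-beta, had 8760.2 in the miR-31 array and 10555 in the control array, a log2 ratio of -0.27, with 7 kept probe sets between -0.56 and 0.98. Of the related receptors, 2 of 5 were compared, both within 2-fold, and the endothelial coreceptor ENG lay below the minimum, with 47.6 in the miR-31 array and 17.4 in the control array.

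The other SMADs and their anchors had a median log2 ratio of -0.11, and all 8 genes were within 2-fold. SMAD2, which works beside SMAD3, had 910.3 in the miR-31 array and 1073 in the control array, with 5 kept probe sets between -0.39 and 0.13 on the log2 scale. SMAD4, the shared partner of receptor-activated SMADs, had 404 in the miR-31 array and 345 in the control array, a log2 ratio of 0.22 with kept probe sets between -0.23 and 0.75. SMAD6, the inhibitory SMAD that acts mainly on bone morphogenetic protein signalling, had 352 in the miR-31 array and 326 in the control array, a log2 ratio of 0.11. The list named for restraint of the receptor or the SMADs also holds RNF111 and USP4, which promote the signal. Its median was -0.01, with all 12 genes compared within 2-fold. Among them SKI, the corepressor related to SKIL, had 2209.9 in the miR-31 array and 2245 in the control array, a log2 ratio of -0.02.

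Output genes other than the members lay on both sides of 0, with the lower side more filled. Of 19 compared, 13 had log2 ratios below 0 and 6 above, 3 were past 2-fold on the lower side and 1 on the higher side, and the median was -0.41, against 5518 of 11787 below 0 and a median of 0.03 over all genes. IL11, a cytokine of the interleukin 6 family, had 581 in the miR-31 array and 2157 in the control array, a log2 ratio of -1.86, and -1.20 on its other probe set. COL4A1, a basement membrane collagen chain, had 1981 in the miR-31 array and 4461 in the control array, a log2 ratio of -1.16, but -0.11 on its other probe set. SNAI2, a transcriptional repressor of epithelial genes, had 931 in the miR-31 array and 1939 in the control array, a log2 ratio of -1.05. BHLHE40, a circadian and hypoxia-related transcription factor, went the other way, with 3661 in the miR-31 array and 1776 in the control array, a log2 ratio of 1.04, and 0.60 on its other probe set. CCN2, connective tissue growth factor, had 14113 in the miR-31 array and 26227 in the control array, a log2 ratio of -0.89. TGFBI, a secreted matrix protein named for its induction by TGF-beta, had 8048 in the miR-31 array and 10697 in the control array, a log2 ratio of -0.41. Among the 6 above 0, within 2-fold, were FN1 with a log2 ratio of 0.82, COL1A2 with 0.77 and CDKN1A with 0.74. Among the 13 below 0, within 2-fold, were TPM1 with -0.97 and LTBP2 with -0.60. The 5 kept probe sets of TPM1 lay between -0.97 and -0.39, and the other probe set of LTBP2 had -1.43. Kept probe sets of TSC22D1 lay between -0.68 and 0.93, those of HMGA2 between -0.76 and 0.23 and those of COL1A1 between -0.74 and 0.11. The median of these output genes was not recomputed under the alternatives. Many of these output genes also answer to other pathways, and no value here separates those inputs.

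**Figure D5:**
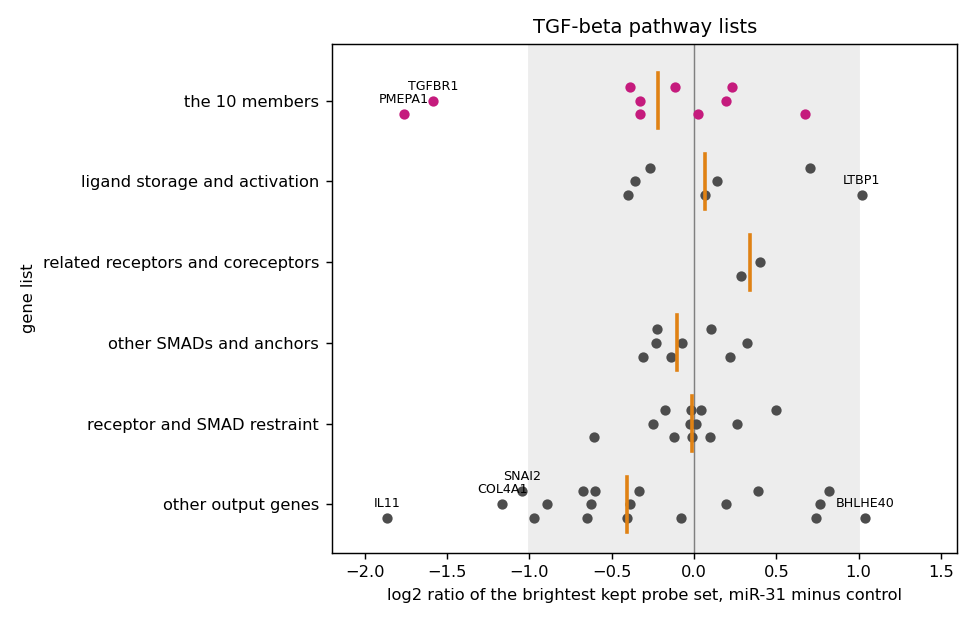
Log2 ratio of the brightest kept probe set, miR-31 over control, for the 10 members and the 5 other pathway lists, 1 point per gene, with the median of each list as an orange bar and the band within 2-fold shaded. Genes past 2-fold are named; the restraint and other SMAD lists lie wholly inside the band.

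Promoter windows from RefSeq (GRCh38.p14, 250 bases before to 50 after a transcription start) were searched for 2 sequences linked to SMAD binding. One is CAGAC, which reads GTCTG on the other strand, and the other is the palindrome GTCTAGAC; neither contains the other, and both strands were searched. All 10 genes had windows, 28 in all because several genes have more than one start. CAGAC was present in 15 of the 28, against 45.3% of all 35116 windows, and GTCTAGAC in 0 of 28, against 0.202% of all. TGFBR1 had CAGAC in 4 of 8 windows, PMEPA1 in 3 of 4 and SKIL in its single window, so its presence did not separate the lower genes from SKIL. The windows below compare TGFBR1 and PMEPA1, which were at least 2-fold lower, with SKIL, which was not. For each, the window with most matches is shown, and for TGFBR1 the furthest downstream among equals, chosen after the matches were counted. Capitals mark CAGAC on either strand. They lie at chr9:99104833-99105132 on the plus strand, chr20:57709966-57710265 on the minus strand and chr3:170357465-170357764 on the plus strand. A match of letters is not evidence of a bound site.
TGFBR1: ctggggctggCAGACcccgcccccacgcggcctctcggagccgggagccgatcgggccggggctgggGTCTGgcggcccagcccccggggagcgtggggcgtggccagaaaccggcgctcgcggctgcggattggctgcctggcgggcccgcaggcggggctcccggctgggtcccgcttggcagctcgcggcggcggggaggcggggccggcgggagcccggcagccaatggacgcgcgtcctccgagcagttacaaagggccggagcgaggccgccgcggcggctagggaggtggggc
PMEPA1: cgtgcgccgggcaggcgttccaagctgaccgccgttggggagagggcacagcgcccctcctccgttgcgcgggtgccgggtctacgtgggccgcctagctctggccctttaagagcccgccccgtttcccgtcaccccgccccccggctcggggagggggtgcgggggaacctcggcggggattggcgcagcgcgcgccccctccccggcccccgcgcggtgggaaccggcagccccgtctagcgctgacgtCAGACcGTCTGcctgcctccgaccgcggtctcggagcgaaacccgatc
SKIL: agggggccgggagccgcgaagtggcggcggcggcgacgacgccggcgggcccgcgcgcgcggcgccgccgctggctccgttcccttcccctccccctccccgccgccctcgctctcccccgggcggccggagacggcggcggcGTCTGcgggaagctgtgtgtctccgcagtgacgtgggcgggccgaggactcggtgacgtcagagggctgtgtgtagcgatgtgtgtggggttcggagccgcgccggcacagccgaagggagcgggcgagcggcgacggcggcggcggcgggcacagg

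Measures of the RNA and of cell identity were read on the same arrays. The 3' over 5' signal of the GAPDH controls was 1.01 in the miR-31 array and 0.949 in the control array, and that of ACTB was 2.17 in the miR-31 array and 2.39 in the control array. Of 10 astroglial and glioma markers 8 passed the level minimum, and the others, S100B and AQP4, did not. The 8 that passed had log2 ratios between -0.91 and 0.85, with 5 below 0 and 3 above. Over 6 immune markers with a probe set, 2 passed the minimum, and the summed intensity was 304 in the miR-31 array and 212 in the control array. Of 6 fibroblast markers 1 passed, PDGFRA, which glial cells also express, and of 5 endothelial markers 2 passed. The array pair also differed in antiviral genes, looked up with earlier results of these arrays known. On the brightest probe set all 10 interferon-stimulated genes were at least 2-fold higher, against 3.74% of all genes compared. The other kept probe set of IFIT2 had a log2 ratio of 0.69. The summed intensity of the brightest probe sets of these interferon-stimulated genes was 64446 in the miR-31 array and 8258 in the control array. The part of that response, or of any other difference between the cultures, in the TGFBR1 and PMEPA1 values was not tested. In RNA from a whole culture, fewer cells with a transcript and less transcript per cell cannot be told apart.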

How the data were processed

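The data are 1 table of linear intensity values for 54675 probe sets on 2 arrays, deposited by the authors. The summarising software was not given in the sources used here; their mean after trimming 2 percent at each end was 500.1 on both arrays, so the deposited intensity values had been scaled. Per the labels' protocols, biotin labelling used a 3' IVT kit. Of the probe sets, 41091 carried 1 gene symbol and were used, 1801 carried several and 11721 none; 62 were controls. Values were log2(intensity + 16); probe sets below the median mean level were left out, and the brightest kept probe set stood for a gene. A gene counted as lower or higher at 2-fold. Each group has 1 array, which limits the precision, so no test was run. No detection calls were used, so a dim value and background look alike.

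The members and lists were chosen with earlier results of these data known. All 10 members were named with every probe set, and of the other lists the genes past 2-fold and 10 fixed ones. In addition, LTBP3, FN1, COL1A2, CDKN1A, TPM1, LTBP2, TSC22D1, HMGA2 and COL1A1 were named after their values were seen. The calculation was tested on simulated data. The tools were pandas 2.3.3, numpy 2.4.6, statsmodels 0.14.6, scipy 1.17.1 and matplotlib 3.10.9 under Python 3.11.15. Alternatives were quantile normalization, median centring, loess removal of a level trend (span 0.3), pseudocounts of 1 and 64, no filter or a stricter one (intensity 409), the mean of probe sets, no _s_at or _x_at probe sets and 1.5-fold; centring on spike-in controls was chosen after seeing the data.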

Additional observations from a re-analysis of the deposited data

How the results depend on the processing

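No paired analysis was possible because there is 1 array of each kind, and for the same reason none could be omitted. The 2 members at least 2-fold lower, TGFBR1 and PMEPA1, numbered 2 in all 12 alternatives, with log2 ratios between -2.14 and -1.37 for TGFBR1 and between -2.31 and -1.62 for PMEPA1. The count of member genes at least 2-fold higher, 0, was 1 at 1.5-fold, and the 5 lower member probe sets became 3 without _s_at and _x_at probe sets. In that last setting TGFBR1 rested on the dim probe set 236561_at alone, with 92.8 in the miR-31 array and 265 in the control array. Of the other pathway genes, the 3 lower ones became 10 at 1.5-fold, 5 after centring on the hybridisation controls and 10 after centring on the poly-A controls. The 2 higher ones, LTBP1 and BHLHE40, were close to 2-fold. They became 1 with quantile normalization, median centring, loess, a pseudocount of 64, the stricter filter and the mean of probe sets. The count was 6 at 1.5-fold and 0 with either spike-in centring. Without _s_at and _x_at probe sets it was also 1, but of another gene, because LTBP1 and BHLHE40 passed 2-fold only on _s_at probe sets. Averaging the probe sets of a gene turned the median of the other pathway genes from -0.08 to 0.04, and centring on poly-A controls gave -0.63. Over all genes, the 186 lower ones became 793 at 1.5-fold, 1002 without the filter, 100 with the stricter one, and 367 and 1279 with the hybridisation and poly-A centrings; the 441 higher ones became 1376 at 1.5-fold, 1184 without the filter, 151 with the stricter one, 283 with a pseudocount of 64, and 266 and 124 with those centrings. A filter or a fold sets by its own construction the number that can pass. The stricter filter left 7 of the 10 members.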
